A study of Mus musculus with 15 samples.

Results

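The genes described here lie on a 33.69 Mb stretch of mouse chromosome 9, from 54.69 to 88.38 Mb on GRCm38, in the mammary carcinoma line 4T1. A gene was a member when its start lay in the stretch and it had at least 10 counts in at least 3 of the 15 libraries. Of 27179 gene identifiers in all, 327 lay in the stretch. The count rule removed 126 of these, and 7 more were left out by name, among them Pkm, Col12a1, Sema7a and Rplp1. This left 194 members, of which 187 code for proteins. The expression test covered 193 members, all but Calml4, among 12712 genes tested. The stretch was chosen by the expression of its genes in these same libraries. Its levels, fold changes and counts of called genes are therefore a description, and they cannot serve as independent evidence that the stretch stands apart.

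The libraries came from 5 populations with 3 biological replicates each, all labelled wild type in genotype. The parental population is the uncloned 4T1 line. E1, E2, A and M were each grown from a single cell after transfection of parental cells with a plasmid for iRFP670, a near-infrared fluorescent protein sent to the nucleus by its localization signal. Each clonal population is thus 1 clone, and the clones were kept in the antibiotic G418, which was withdrawn before RNA was collected; the parental cells were not kept in it. Cells grew in RPMI-1640 medium with fetal bovine serum and gentamicin. RNA was taken after 72 h at about 80% confluency and sequenced from directional libraries. Transfection, cloning and G418 were common to all 4 clones and cannot be told apart. The labels do not tie the replicates to separate thaws or clonings, so tests measure the spread between these cultures.

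The line is a mouse model of metastatic breast cancer with an abnormal karyotype. In such lines whole chromosomes or long segments can be gained or lost, and transcripts of many genes on a segment then scale with its number of copies. The stretch has no common pathway: it carries genes for signalling proteins such as Smad3, for endosomal traffic such as Rab11a, for surface proteases such as Adam10, for ubiquitin ligases such as Nedd4 and for the respiratory chain such as Cox5a. Genomic DNA was not analysed here.

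The libraries held 20143111 to 36831801 counts, of which the 6 most abundant genes took 61.4% to 72.1%. Parental replicate 1 and E2 replicate 1 had the highest shares of the single most abundant gene, 49.3% and 49.1%. Counts over the members ran from 154396 to 506980 per library. All 7 epithelial markers reached 1 CPM (counts scaled to a common library total) in every library, with a summed level of 301 to 663 CPM. The summed level of 5 leukocyte markers stayed at or below 1.12 CPM, with 2 of the 5 at 0 throughout, and that of 4 endothelial markers at or below 0.425 CPM. The 5 fibroblast markers summed to 21.0 to 33.8 CPM in A and 3.15 to 12.1 CPM elsewhere. Of these, 1 marker, the growth factor receptor gene Pdgfra, reached 1 CPM in every library, with a mean of 26.4 CPM in A. Dcn and Lum were at 0 throughout. Col1a1 and Col3a1 were at 0 in A and at or below 0.182 CPM elsewhere. What the level of Pdgfra in A reflects was not tested.

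The first question was how the level of the whole stretch differed between populations. For each library the median over the members of log2 CPM was taken relative to the parental mean of each gene. This median was -0.40, -0.43 and -0.41 in the 3 E1 libraries, and -0.35, -0.15 and -0.22 in the E2 libraries. It was 0.25, 0.18 and 0.22 in the A libraries, and -0.10, -0.17 and -0.09 in the M libraries. The parental libraries gave -0.10, 0.02 and 0.07. A was thus above, and E1 below, all libraries of every other population, while M overlapped both E2 and the lowest parental library. The means were 0.22 ± 0.0350 (SD, n = 3) in A, -0.12 ± 0.0455 in M, -0.24 ± 0.103 in E2 and -0.41 ± 0.0131 in E1. In bulk RNA, fewer cells that express a gene and less RNA per cell cannot be told apart.

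**Figure D1:**
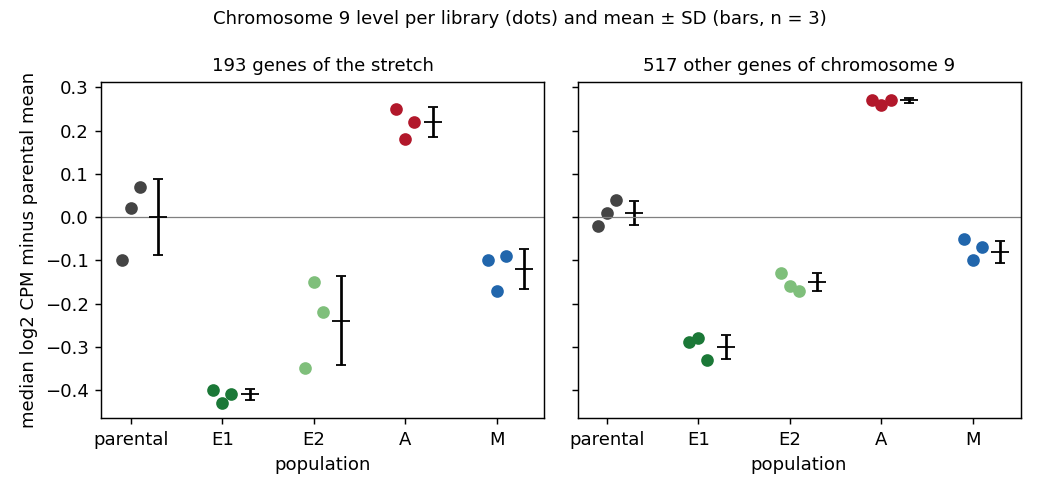
The median over genes of log2 CPM minus the parental mean (vertical axis) for each library, by population (horizontal axis), for the 193 tested genes of the stretch at left and the 517 other tested genes of chromosome 9 at right. Dots are libraries and bars the mean ± SD of 3. In both panels the A libraries lie above 0.17 and the E1 libraries at -0.28 or lower.

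The summed level of the members was also expressed as a share of the scaled library total. They made up 1.05% ± 0.150 (SD, n = 3) in the parental population, 1.42% ± 0.116 in A, 0.767% ± 0.0401 in E1, 0.968% ± 0.151 in E2 and 0.921% ± 0.0719 in M. A was again highest and E1 had the lowest mean, but the mean of E2 was above that of M, and the ranges of E1 and E2 overlapped. This share gives most weight to abundant genes. Among those is Eef1a1, a translation elongation factor with near-identical copies elsewhere in the genome, so its reads may be shared. It stood at 1720 CPM ± 103 in the parental cells, 1810 CPM ± 180 in A, 1210 CPM ± 141 in M, 1100 CPM ± 63.2 in E1 and 1110 CPM ± 51.9 in E2. Rn7sk, a small RNA that restrains transcription elongation, ranged from 1400 to 5800 CPM, and its A libraries, at 4090 CPM or more, overlapped those of E2. Rn7sk had a log2 fold change of -0.64 in M against E2, and the share was not computed without it. Eef1a1 and Rn7sk were chosen after their values were seen.

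Against the parental population, the 4 comparisons use the same 3 parental libraries. In E1 the median log2 fold change of the 193 members was -0.45, against -0.01 over all genes tested. Of the members, 57 were called lower and 5 higher (adjusted p under 0.05 over all genes), where 7.35% of all genes were called lower and 7.77% higher. The total of 62 became 40 without parental replicate 3, 37 without E1 replicate 2 and 38 without E1 replicate 3. In E2 the median was -0.24, with 42 members lower and 6 higher, where 8.8% and 9.14% of all genes were called in these directions. The total of 48 became 31 without parental replicate 1 and E2 replicate 1, and 32 without parental replicate 3. In A the median was 0.23, with 54 members higher and 15 lower, where 15.1% and 14.9% of all genes were called. In M the median was -0.15, with 7 members higher and 18 lower, where 7.87% and 6.28% of all genes were called. The total of 25 for M became 14 without parental replicate 3 and 15 without M replicate 3.

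Between clones, the comparisons again share libraries. A stood above E1 by a median of 0.64, with 94 members called higher and 7 lower, where 15% and 14.6% of all genes were called. The 3 A libraries lay above all 3 E1 libraries for 112 members (58.0%), where this held for 23.7% of all genes. It also held for 49.7% of the other tested genes of chromosome 9. Of those other genes, 36.4% were called higher in A than in E1 and 2.71% lower, beside 48.7% and 3.63% of the members. A stood above E2 by a median of 0.56, with 68 members higher and 7 lower, where 11.4% and 11% of all genes were called. M stood below A by a median of -0.34, with 49 members lower and 3 higher, where 8.55% and 9.2% of all genes were called.

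M was also set against both E clones. Against E1 its median was 0.27, with 22 members higher and 2 lower, where 2.43% and 1.46% of all genes were called. This total of 24 became 10 without E1 replicate 2, 11 without E1 replicate 3, and 12 without M replicate 1 or M replicate 3. Against E2 the median of M was 0.13, with 11 members higher and 2 lower, where 1.93% and 1.57% of all genes were called, and the total of 13 became 6 without E2 replicate 1 and 7 without M replicate 3. E2 and E1 differed by a median of 0.16, with 1 member called, as higher, where 0.173% and 0.0629% of all genes were called, and that 1 call was lost without E1 replicate 2 or 3 and without any 1 E2 or A library. Some difference among the 5 populations was called for 110 members, where 40.9% of all genes were called.

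Taking the mean level of each gene, A was the highest of the 5 populations for 103 of the 193 members (53.4%). This held for 50.9% of the other genes of chromosome 9 and for 29.9% of all genes tested. E1 was the lowest for 102 members (52.8%), for 44.1% of the other genes of chromosome 9 and for 18.9% of all genes. Both held for 66 members (34.2%), for 28.8% of the other genes of chromosome 9 and for 10.6% of all genes. The parental population was highest for another 61 members (31.6%), for 28.2% of the other genes of chromosome 9 and for 25.1% of all genes. Across the 193 members, the log2 fold change of A against E1 had a Spearman correlation of 0.03 with mean level and 0.03 with gene length on the genome, as a description across genes that share libraries. Members under 5 CPM had a median of 0.77 in that comparison and members of at least 5 CPM a median of 0.62.

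The values outside the stretch were set beside those within it. The 517 other tested genes of chromosome 9 had medians against the parental population of -0.32 for E1, -0.16 for E2, 0.27 for A and -0.09 for M. The 250 of these before the stretch had medians of -0.31, -0.14, 0.29 and -0.09, and the 267 after it -0.32, -0.21, 0.26 and -0.08. Of the 517, 16.2% were called lower and 3.09% higher in E1 against parental, where the members had 29.5% and 2.59%. In A, 23.0% were called higher and 8.32% lower against parental, where the members had 28.0% and 7.77%. For A against E1 the medians were 0.48 before, 0.64 within and 0.54 after the stretch. Among 5 Mb bins of chromosome 9 with at least 20 tested genes, 6 consisted mostly of members and had A against E1 medians of 0.51 to 0.82. The 9 bins with no member had medians of 0.27 to 0.72, also all above 0. The direction of the shift was therefore the same before, within and after the stretch, and neither end of it marked a change of sign.

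**Figure D2:**
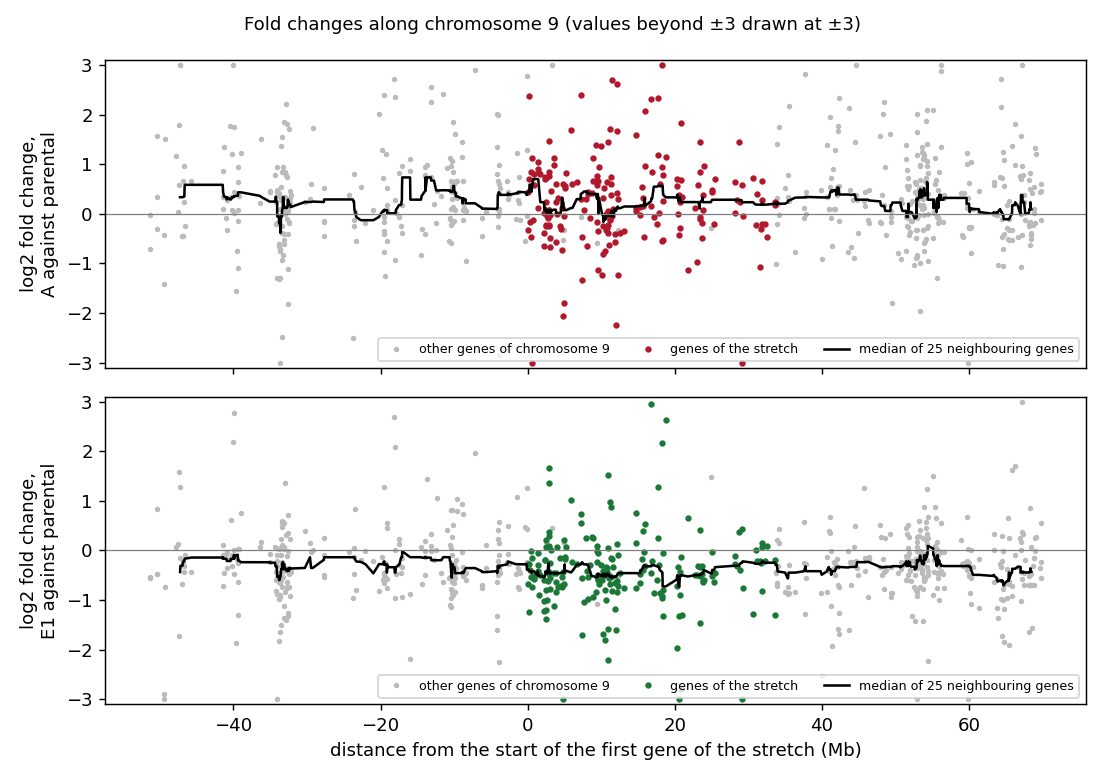
Log2 fold change of each tested gene of chromosome 9 (vertical axis) in A against parental (top) and E1 against parental (bottom), by distance from the start of the first gene of the stretch in Mb (horizontal axis). Coloured dots are genes of the stretch, grey dots other genes, and the line is the median of 25 neighbouring genes; values beyond ±3 are drawn at ±3. The running median lies mostly above 0 in A and below 0 in E1 on both sides of the stretch as well as within it.

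Other chromosomes gave the scale of such a shift. In A against E1 the median of chromosome 9 was 0.55, and those of the 19 other chromosomes ran from -0.26 (chromosome 6) to 0.25 (chromosome 16). In A against E2 it was 0.41, where the others reached 0.37 (chromosome 14). In M against E1 it was 0.21, where the others reached 0.18 (chromosome 16). It was not the most extreme in E2 against E1, at 0.13, or in M against E2, at 0.09. There chromosome 14 had -0.26 and 0.43. In M against A chromosome 9 was the lowest, at -0.33, where the others went down to -0.24 (chromosome 3). In the other direction chromosome 6 had 0.45 in that pair. Against the parental population chromosome 9 was not the most extreme. Its median was -0.34 in E1 and -0.19 in E2, where chromosome 14 had -0.46 and -0.75, and 0.25 in A, where chromosome 16 had 0.29. In M it was -0.12, where chromosome 8 had -0.38. No test of the stretch against the remainder of the chromosome was made, since the stretch was chosen on these values.

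The genes at the ends were mixed. Dnaja4, a cochaperone and the first member, had log2 fold changes against parental of -0.68 for E1, -0.78 for E2, -0.33 for A and -0.28 for M. Its neighbour Wdr61, a subunit of a complex that accompanies RNA polymerase, had -0.28, -0.10, 0.44 and 0.12. Just outside lie Idh3a, a Krebs cycle enzyme, with -0.23, -0.18, -0.05 and -0.09, and Acsbg1, a fatty acid activating enzyme, with 1.26, 1.03, 1.29 and 1.22. At the far end, the last members Nt5e and Snx14 had 0.18 and 0.23 in A and -1.31 and -0.20 in E1. Beyond them, Syncrip, an RNA-binding protein gene, had 0.18 in A and -0.43 in E1, and the noncoding RNA gene Snhg5 had -1.01 and -0.45.

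The members were then read by role. Of 173 genes listed for 8 roles, 134 were members, and 60 members had no listed role. In what follows, rose and fell are kept for calls against the parental population that also held in each fit with 1 library left out and in the other settings tried; for all other values only the numbers are given. Log2 fold changes carry a standard error (SE) computed here from the replicate SD of both populations, with 3 libraries each. Each count in a role group stands beside the same shares as before. Over all genes, 7.35% were called lower in E1, 8.8% lower in E2, 15.1% higher and 14.9% lower in A, and 6.28% lower in M. Over all members these shares were 29.5%, 21.8%, 28.0%, 7.77% and 9.33%. CPM values are not scaled to gene length, so levels are compared within a gene only.

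**Figure D3:**
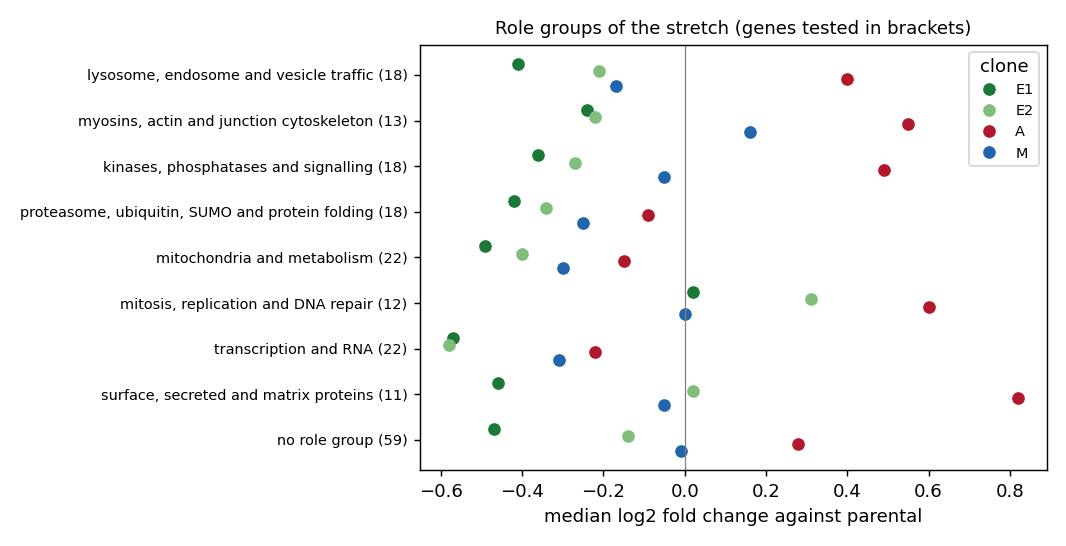
Median log2 fold change against parental (horizontal axis) of the tested members of each role group (vertical axis, number of genes in brackets) in the 4 clones. The A medians run from -0.22 for transcription and RNA to 0.82 for surface, secreted and matrix proteins, while E1 medians lie at -0.24 or lower in all groups but mitosis, replication and DNA repair.

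Genes of kinases, phosphatases and signalling had 8 of 18 tested members called lower for E1, 6 lower for E2, 8 higher for A and 2 lower for M, which were all the calls. The medians were -0.36, -0.27, 0.49 and -0.05. Smad3, which carries signals from TGF-beta and activin receptors to the nucleus (identifier 17127, 63646766 to 63757994, on chromosome 9 as are all positions below), read 71.4, 72.7 and 73.8 CPM in the parental libraries. It read 37.7, 37.8 and 38.1 CPM in E1 and 54.7, 49.0 and 59.5 CPM in E2. It read 164, 150 and 159 CPM in A and 86.2, 86.1 and 83.7 CPM in M. No 2 populations overlapped, in the order E1, E2, parental, M and A. Smad3 fell by 0.94 on the log2 scale in E1 (SE 0.0145) and rose by 1.12 in A (SE 0.0406), and A exceeded E1 by 2.06 (SE 0.0382). The values of M against parental, 0.23, and of E2 against E1, 0.52, did not pass the test. These SEs rest on 3 closely spaced libraries.

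Within the same group, Ptpn9, a tyrosine phosphatase, read 71.8, 94.8 and 86.1 CPM in the parental libraries, against 130, 136 and 144 CPM in A, and rose by 0.70 (SE 0.125). Its E1, E2 and M libraries, between 62.8 and 108 CPM, all lay below A. Mapk6, an atypical MAP kinase, had log2 fold changes of -0.44 in E1 and 0.24 in A, and A exceeded E1 by 0.67 (SE 0.0826). Plekho2, a pleckstrin homology domain gene, had 6.88 CPM ± 2.32 in the parental cells, fell by 2.22 in E1 (SE 0.361) and stood at 7.18 CPM ± 0.587 in A.

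Surface, secreted and matrix protein genes had the highest A median of the 8 groups, 0.82, with 5 of 11 tested members called, all higher. In E1 the median was -0.46 with 3 lower, in E2 0.02 with 2 lower, and in M -0.05 with 1 higher and 1 lower. Only 11 of the 25 listed genes of this group were members and tested. Adam10, a protease that sheds the outer parts of Notch and other surface proteins, read 72.7, 114 and 97.4 CPM in the parental libraries, against 171, 180 and 202 CPM in A. Its E1 libraries read 66.5, 85.8 and 75.0 CPM, its E2 libraries 65.5, 103 and 95.5 CPM, and its M libraries 87.4, 88.8 and 97.3 CPM. A was apart from all others, which overlapped among themselves except that M lay above E1. Adam10 rose by 0.96 in A (SE 0.202).

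Nt5e, the surface enzyme CD73 that makes adenosine, showed another order. It read 96.5, 93.8 and 121 CPM in the parental libraries, 41.1, 38.3 and 46.2 CPM in E1 and 31.0, 40.1 and 42.6 CPM in E2. It read 112, 120 and 123 CPM in A and 70.2, 79.4 and 82.6 CPM in M. E1 and E2 overlapped and lay below all others, and A overlapped the parental range. Nt5e fell by 1.31 in E1 (SE 0.142) and by 1.45 in E2 (SE 0.184), while the value in A was 0.18.

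Nptn, an immunoglobulin-family adhesion protein gene, rose by 0.60 in A (SE 0.102) and fell by 0.64 in E1 (SE 0.104). Thsd4, a gene for an extracellular matrix protein, rose by 0.82 in A (SE 0.150) and had 0.06 in E1 and 0.76 in M. Cd109, a coreceptor that dampens TGF-beta signalling, read 3.02, 7.69 and 7.12 CPM in the parental libraries and 1.45, 1.96 and 1.68 CPM in M. It fell by 1.76 in M (SE 0.443), and the A libraries, at 9.13, 12.1 and 13.7 CPM, lay above all M libraries.

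Lysosome, endosome and vesicle traffic genes had 7 of 18 called lower in E1, 5 lower in E2, 5 higher and 3 lower in A, and 1 in each direction in M, with medians of -0.41, -0.21, 0.40 and -0.17. Rab11a, a GTPase of recycling endosomes, read 28.0, 55.9 and 44.7 CPM in the parental libraries, against 101, 106 and 127 CPM in A. Its other clones lay between 32.3 and 65.0 CPM, below every A library and overlapping the parental range. It rose by 1.38 in A (SE 0.311). Rab8b, a GTPase of membrane transport, fell by 0.83 in E1 (SE 0.277), and Tmem30a, a partner of lipid flippases, had 0.94 in A against E1 (SE 0.0808).

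In this group Dennd4a and Hexa departed from the shift in A. Dennd4a, an exchange factor for Rab GTPases, read 69.6, 87.8 and 80.9 CPM in the parental libraries, 66.4, 45.0 and 46.8 CPM in E1, and 34.9, 33.9 and 32.8 CPM in A. It fell by 1.23 in A (SE 0.101) and by 0.80 in E2 (SE 0.174), and A was below the libraries of every other population. Hexa, the alpha subunit of lysosomal beta-hexosaminidase (identifier 15211, 59539540 to 59565109), read 5.94, 4.98 and 4.47 CPM in the parental libraries. E1 read 0.242, 0 and 0 CPM and E2 0, 0.0698 and 0.304 CPM. A read 0.764, 1.53 and 1.23 CPM and M 3.57, 0.735 and 2.36 CPM. All clones lay below the parental libraries, with E1 and E2 near 0.

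For Hexa, 3 counts correspond to 0.0735 to 0.156 CPM depending on the library, so the lowest values are at or near that limit. Hexa fell by 5.05 in E1 (SE 0.733) and by 4.65 in E2 (SE 0.715), values that depend on the prior count of 2 used in the fit. Its annotated span overlaps Tmem202. Arih1, a ubiquitin ligase gene that lies before it on the chromosome, had log2 fold changes of -0.53 in E1 and -0.38 in E2.

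Myosin, actin and junction genes had 7 of 13 called higher in A, 2 lower in E1 and in E2, and 1 in each direction in M, with medians of -0.24, -0.22, 0.55 and 0.16 in E1, E2, A and M. Cgnl1, a protein of epithelial junctions, read 77.8, 53.4 and 69.6 CPM in the parental libraries. Its A libraries read 125, 107 and 130 CPM and its M libraries 88.6, 132 and 102 CPM. A and M overlapped with each other and not with the parental range. Cgnl1 rose by 0.85 in A (SE 0.182) and by 0.69 in M (SE 0.233).

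Myo5c, a vesicle-carrying myosin of glandular epithelia (identifier 208943, 75231969 to 75307485), read 16.7, 12.2 and 12.9 CPM in the parental libraries. It read 2.45, 0.650 and 0.252 CPM in E1 and 0.625, 0.663 and 1.09 CPM in E2. It read 11.6, 12.3 and 7.32 CPM in A and 3.70, 3.58 and 4.31 CPM in M. E1 and E2 were lowest and M lay between them and the overlapping A and parental ranges. Myo5c fell by 3.53 in E1 (SE 0.875) and by 3.99 in E2 (SE 0.274), and its span overlaps Gnb5. Gnb5 itself had -1.33 in E1 and -1.29 in E2. The neighbouring Myo5a, a related transport myosin, had -0.34 in E1 and -0.23 in E2. Tpm1, a tropomyosin, had values from -0.09 to 0.31 and Anxa2, an annexin, from 0.11 to 0.45 against parental.

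**Figure D4:**
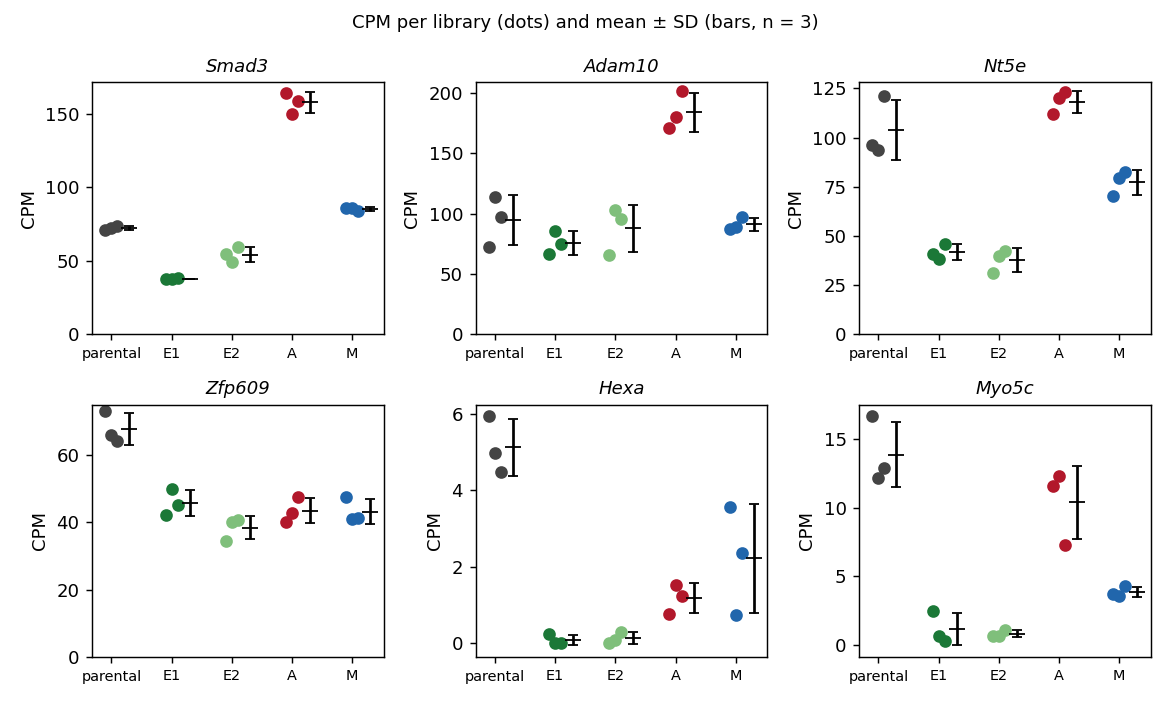
CPM (vertical axis, from 0) of Smad3, Adam10, Nt5e, Zfp609, Hexa and Myo5c in each library by population (horizontal axis); dots are libraries and bars the mean ± SD of 3. Smad3 and Adam10 are highest in A, Nt5e, Hexa and Myo5c are lowest in E1 and E2, and Zfp609 is lower in all 4 clones than in the parental cells.

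The promoters of Hexa, Myo5c and Smad3 are shown because Hexa and Myo5c were lowest in E1 and E2 while the Smad3 libraries of the 5 populations did not overlap. The windows are those of RefSeq on GRCm38.p6, from 250 bases before to 50 bases after a transcription start, 5′ to 3′ on the strand of the gene, with CG dinucleotides in capitals. They are Hexa at chr9:59539290-59539589 (plus strand), Myo5c at chr9:75231764-75232063 (plus strand) and Smad3 at chr9:63757945-63758244 (minus strand). The window of Myo5c is set on a start that lies inside the gene span given above, not at its edge.
Hexa: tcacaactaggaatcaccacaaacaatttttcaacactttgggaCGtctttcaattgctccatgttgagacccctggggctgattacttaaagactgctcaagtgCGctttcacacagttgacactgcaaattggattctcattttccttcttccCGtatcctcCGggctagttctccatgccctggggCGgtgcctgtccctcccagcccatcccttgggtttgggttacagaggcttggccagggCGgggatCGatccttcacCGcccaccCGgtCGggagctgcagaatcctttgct
Myo5c: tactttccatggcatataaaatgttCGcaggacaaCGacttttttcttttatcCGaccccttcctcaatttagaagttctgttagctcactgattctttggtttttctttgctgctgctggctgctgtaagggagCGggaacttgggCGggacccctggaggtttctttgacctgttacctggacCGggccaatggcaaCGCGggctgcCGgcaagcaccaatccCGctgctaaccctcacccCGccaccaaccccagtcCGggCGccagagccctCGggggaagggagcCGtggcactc
Smad3: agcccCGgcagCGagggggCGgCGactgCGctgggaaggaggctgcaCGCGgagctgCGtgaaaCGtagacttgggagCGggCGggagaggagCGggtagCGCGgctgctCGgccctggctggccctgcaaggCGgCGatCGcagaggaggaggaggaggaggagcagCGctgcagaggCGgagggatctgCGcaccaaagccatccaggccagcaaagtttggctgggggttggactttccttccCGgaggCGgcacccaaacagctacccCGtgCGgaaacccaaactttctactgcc
The windows hold 10, 15 and 25 CG dinucleotides, and 43.5%, 34.6% and 18.4% of 32851 mouse promoter windows of the same length hold at least as many. The median was 7 over all these windows and 21 over those of 172 members, taking 1 window per gene for the members only. The motif TATAAA, searched on both strands, occurs in the window of Myo5c and not in those of Hexa and Smad3. In Myo5c it lies near the 5′ end of the window and not near the transcription start. TATAAA occurs in 13.6% of all windows and 5.81% of the member windows. The sets are unlike: all windows were used without a count rule, while every member had passed it. Genes of like expression were not compared, so these values do not set the members apart. No methylation or binding data were analysed here, and these counts describe sequence only.

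Proteasome, ubiquitin, SUMO and protein folding genes had 7 of 18 called lower in E1 and 6 in E2, 3 higher and 2 lower in A and 2 lower in M, with medians of -0.42, -0.34, -0.09 and -0.25. Nedd4, a ubiquitin ligase that marks membrane proteins for removal, read 510, 522 and 514 CPM in the parental libraries, 318, 252 and 286 CPM in E1 and 342, 363 and 434 CPM in E2. It read 785, 764 and 782 CPM in A and 379, 435 and 444 CPM in M. All A libraries were above, and all libraries of E1, E2 and M below, the parental ones. Nedd4 fell by 0.85 in E1 (SE 0.0974) and rose by 0.59 in A (SE 0.0154). Fem1b, a substrate receptor of a cullin ligase, went the other way in A: it fell by 0.65 (SE 0.183), and by 0.72 in M (SE 0.184). For Ppib, a folding enzyme of the endoplasmic reticulum, A exceeded E1 by 1.14 (SE 0.170).

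Mitochondrial and metabolic genes had 7 of 22 called lower in both E1 and E2, 4 in each direction in A and 2 lower in M, with medians of -0.49, -0.40, -0.15 and -0.30. The counts in A and M are near the shares over all genes, 15.1% higher and 14.9% lower in A and 6.28% lower in M. Car12, a surface carbonic anhydrase, read 21.0, 14.1 and 18.9 CPM in the parental libraries and 2.62 to 7.57 CPM in the 12 clone libraries, so no clone overlapped the parental range. It fell by 2.25 in A (SE 0.197), 2.13 in M (SE 0.332), 1.90 in E2 (SE 0.234) and 1.60 in E1 (SE 0.346). Gclc, the catalytic subunit of the first enzyme of glutathione synthesis, fell by 0.97 in A (SE 0.209), from 45.2 CPM ± 9.06 to 23.0 CPM ± 3.30. Glce, an epimerase of heparan sulfate synthesis, fell by 0.55 in E1 (SE 0.0652), 0.56 in E2 (SE 0.0801) and 0.48 in A (SE 0.0592).

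In the same group Hykk, a hydroxylysine kinase gene, read 0.929, 1.57 and 0.693 CPM in the parental libraries, against 6.18, 6.65 and 4.55 CPM in A, above all other libraries. It rose by 2.37 in A (SE 0.363). Ireb2, an iron regulatory protein gene next to it, had 0.70 in A and A exceeded E1 by 0.98 (SE 0.0972). Cox5a, a subunit of cytochrome c oxidase, had -0.62 in E1 and -0.08 in A. Elovl4, an elongase of very long fatty acids chosen after its values were seen, read 2.09, 1.49 and 2.99 CPM in the parental libraries, was at 0 in 9 of the 12 clone libraries and reached 0.123 CPM at most in the other 3. It was called lower in all 4 clones, and no fold change is given because the clone libraries are at or near the limit of 3 counts.

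Transcription and RNA genes had the lowest medians of the 8 groups, -0.57 for E1, -0.58 for E2, -0.22 for A and -0.31 for M. Of 22 tested, 9 passed as lower in E1, 7 in E2, 4 in M and 3 in A, which had 2 called higher. Zfp609, a zinc finger regulator of transcription, read 73.1, 66.1 and 64.1 CPM in the parental libraries, and 34.4 to 49.9 CPM in the 12 clone libraries. It fell by 0.82 in E2 (SE 0.0962), 0.56 in E1 (SE 0.0912), 0.64 in A (SE 0.0908) and 0.65 in M (SE 0.0908), with overlapping clones and no overlap with the parental range. Tcf12, a basic helix-loop-helix factor, fell by 0.86 in E1 (SE 0.0996) and 0.73 in E2 (SE 0.192) and had -0.06 in A. Polr2m, a subunit linked to RNA polymerase II, fell by 0.54 in E2 (SE 0.0652). Edc3, an mRNA decapping protein gene, had -0.77, -0.87, -0.66 and -0.87 in E1, E2, A and M.

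Mitosis, replication and DNA repair genes had the highest E2 median of the 8 groups. Their medians were 0.02 for E1, 0.31 for E2, 0.60 for A and 0.00 for M, with 6 of 12 called higher in A, where 15.1% of all genes were, and 2 lower in E1, where 7.35% of all genes and 29.5% of all members were. Tipin, a replication fork protein, read 18.3, 22.0 and 17.5 CPM in the parental libraries, against 27.8, 33.5 and 29.6 CPM in A, and rose by 0.65 (SE 0.127). Kif23, a kinesin of cytokinesis, had means of 25.2 CPM ± 6.16 in the parental cells, 44.9 CPM ± 3.60 in E2, 37.3 CPM ± 6.56 in E1, 31.0 CPM ± 4.41 in A and 31.3 CPM ± 17.8 in M, and passed the test in none of the 4 comparisons. The M libraries of Kif23 read 17.0, 51.2 and 25.6 CPM, wider than the range of the other 12.

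Among members without a listed role, Pclaf, a PCNA-binding protein of replicating cells, read 10.4, 11.7 and 15.1 CPM in the parental libraries. E1 read 16.6, 30.9 and 26.6 CPM and E2 25.2, 35.3 and 33.2 CPM. A read 40.2, 40.1 and 42.4 CPM and M 11.1, 19.4 and 13.0 CPM. M overlapped the parental range and the other 3 clones lay above it. Pclaf rose by 0.98 in E1 (SE 0.312), 1.33 in E2 (SE 0.219) and 1.71 in A (SE 0.163), and its span overlaps Trip4.

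Mindy2, a deubiquitinase gene, read 12.0, 26.5 and 18.0 CPM in the parental libraries, against 65.9, 76.0 and 96.7 CPM in A, above all other libraries, and rose by 2.07 (SE 0.367). Lca5, a ciliary protein gene, rose by 1.45 in A (SE 0.202) and had 0.9 in M. Lrrc49, a leucine-rich repeat gene, rose by 1.68 in A (SE 0.431) and had 1.01 in E1 and 1.1 in E2. Stoml1, a stomatin family gene, rose by 1.12 in A (SE 0.296), and its A libraries of 8.70, 9.36 and 7.16 CPM lay above all others. Of the 194 members, 42 overlap another annotated gene, and since the strand setting of the counting is not given in the sources used here, reads of such pairs cannot be assigned with certainty.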

How the data were processed

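RNA-seq counts per gene were deposited by the authors as 1 file per library. Alignment with HISAT2, counting with featureCounts and a DESeq2 analysis, with builds GRCm38 and mm10, are named in the submitters' processing notes; versions are not given in the sources used here. The deposited normalized tables were not used. Identifiers were joined to RefSeq symbols and coordinates for 25269 of 27179 identifiers and by GENCODE links for 18; 1892 stayed unnamed.

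Software was R 4.3.3, edgeR 4.0.16 (limma 3.58.1), DESeq2 1.42.0 as an alternative, Python 3.11.15 and pandas 2.3.3. The filter filterByExpr (minimum count 10) kept 12712 genes. TMM factors ran from 0.847 to 1.11, and CPM values use them. A robust quasi-likelihood fit with population as the only term (all 15 libraries, prior count 2, common dispersion 0.0651) was tested for 10 pairs of populations and for any difference, with Benjamini-Hochberg adjustment over all genes and a call at 0.05. The procedure was also run on simulated data, with changes set in randomly chosen genes of E1 only. Those data held no small shift shared by neighbouring genes, so the simulation does not bear on such a shift. The limit of 3 counts covers counting error only, since the reads carry no stated molecular identifiers and need not be independent.

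The members, role lists and rules were chosen with earlier results of these data known. Named genes are the 3 members per role group with the highest mean CPM, the 4 largest called fold changes per direction in each clone and the 2 largest between clones (at least 5 CPM in the higher population, replicates not overlapping), and the genes at both ends; 47 members met the rule. Of these, Phip, Insyn1, Cep162 and Sltm are not described above. Against parental, the log2 fold change was 0.63 for Phip in A, -1.69 for Insyn1 in E2 and -0.47 for Sltm in A. Cep162 had -0.55 in A against E1 and -0.55 in A against E2. No 2 libraries of a population agreed within sampling noise (chi-square per degree of freedom 19.2 to 109). Size factors, filters, test, block, abundant genes and each library were varied.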

Additional observations from a re-analysis of the deposited data

How the results depend on the processing

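Of 189 combinations of 21 results with 9 settings other than leaving out 1 library, 182 kept their direction and stayed near the reported value, 0 reversed and 7 moved. Members called in E2 against parental went from 48 to 31, and in M against E2 from 13 to 8, without parental replicate 1 and E2 replicate 1 together (the most abundant gene takes its highest shares there), a setting added after seeing the data, as was leaving out Eef1a1 and Rn7sk. The count for E2 against E1, 1, became 2 with no filter, 2 with DESeq2 and 0 for members of at least 5 CPM. The A against E1 median of 0.64 became 0.68 with DESeq2. The cause was not tested.

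With the replicate number as a block, 2 members were called in E2 against E1 and no other count or median moved past its limit. The numbers were not treated as pairs, since the labels state no pairing and not every same-numbered pair correlated clearly. Deviations of same-numbered libraries correlated from -0.0579 to 0.2125. Their median was 0.0539, and that of other pairs was -0.02875. The value for other pairs is no separate baseline, since deviations were taken from the mean of each population, which ties both values together. For 6 of 15 libraries, the best match in every other population was the library of the same number. A library with a better match of another number in any population was not counted. These values hint that same-numbered libraries resemble each other, a hint from the data and not the design. The reported calls come from the fit without this block.

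Leaving out 1 library at a time gave 37 to 67 members called in E1, 32 to 53 in E2, 52 to 71 in A and 14 to 30 in M against parental. Between clones it gave 0 to 1 for E2 against E1, 82 to 103 for A against E1, 10 to 33 for M against E1, 60 to 82 for A against E2, 6 to 17 for M against E2 and 37 to 54 for M against A. All medians kept their sign, and 99 to 113 members differed among the populations. Of 192 calls of named members, 124 held in every setting, 67 were lost in at least 1 fit without a library and 26 in another setting; 0 reversed. Genes under 5 CPM are limited by depth.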
